A study of Mus musculus with 6 samples.

Results

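Transcript levels of the mitochondrial respiratory chain and of ATP synthase were compared between cholecystokinin cells and other cells of the mouse intestine. The genes were taken by their symbols, as those with a single annotated symbol starting Nduf, Uqcr, Sdh followed by a to d, Atp5, or Cox4 to Cox8, and the probe set of each gene with the highest mean over the 6 arrays was used. This gave 94 of the 18193 genes measured, from 185 probe sets. They comprised 34 subunits of complex I, 4 of complex II, 8 of complex III, 18 of complex IV and 17 of complex V, 81 in all, and 13 assembly or accessory factors. A further 10 probe sets carried several symbols of which at least 1 fits the rule, among them those for Ndufa11 and Ndufs6, and were not taken in. Some genes with such an entry, Ndufa13 among them, were still measured by a probe set with a single symbol. Cox7b is not analysed here.

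CCK-EGFP cells were sorted for enhanced green fluorescent protein (EGFP) from dissociated intestine of adult Swiss Webster mice carrying a CCK-EGFP transgene (3 samples). They were set against non-EGFP cells, a mixture of the non-fluorescent intestinal cells of CCK-EGFP transgenic mice of the same strain and age class, taken in equal number (3 samples). Both groups thus carry the transgene. The sources used here state neither its regulatory sequence nor whether each sample is a different mouse, so the p-values rest on a spread among samples that may be technical.

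Mitochondria oxidise NADH at complex I (NADH dehydrogenase) and succinate at complex II (succinate dehydrogenase), pass the electrons through coenzyme Q, complex III (the cytochrome bc1 complex) and cytochrome c to complex IV (cytochrome c oxidase), and use the proton gradient this builds to make ATP at complex V (ATP synthase). Most subunits are encoded in the nucleus, and the genes described here are all nuclear. Some subunits of complex IV come in isoforms that belong to particular tissues such as heart and skeletal muscle, lung or testis. In the intestine, absorptive enterocytes are known to be rich in mitochondria, while cholecystokinin cells are enteroendocrine cells, which release peptide hormones from granules in response to nutrients.

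Values are log2 intensities after robust multi-array averaging (RMA), where 1 unit is a doubling, and differences are CCK-EGFP minus non-EGFP. Array medians ran from 5.66 to 5.72 on CCK-EGFP arrays, against 5.37 to 5.55 on non-EGFP arrays, and maxima from 14.71 to 14.80. A level of 4.60, the 95th percentile of 71 olfactory and vomeronasal receptor genes, was taken as background. Cck, the hormone that marks the sort, read 13.52, 12.90 and 13.06 in CCK-EGFP cells, against 8.65, 8.35 and 8.89 in non-EGFP cells, and 7 of 7 enteroendocrine markers were higher. Enterocyte markers averaged 12.47, 12.66 and 13.29 on CCK-EGFP replicates 1 to 3, against 13.56, 13.64 and 13.60 on non-EGFP arrays. All 9 of these markers were above background on every array and 2 passed as lower in CCK-EGFP cells. The 3′ minus 5′ difference of the Pcx control, a measure of RNA integrity, was 2.36, 2.45 and 3.07 on CCK-EGFP arrays, against 4.26, 4.38 and 4.26 on non-EGFP arrays, while the 3 other such controls overlapped. Of other cell types, 2 of 6 goblet markers (median difference -0.53) and 1 of 5 myeloid markers (-1.70) were lower. So was 1 of 4 smooth muscle markers (-0.96). Higher were 2 of 4 tuft markers (1.21), 1 of 5 stem and crypt base markers (-0.09) and 1 of 2 brown fat markers (1.57). Over all genes, 14.0% passed as higher and 10.2% as lower. The part of RNA from such cells or of RNA quality in the results below was not tested.

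Few respiratory chain genes passed a test between CCK-EGFP and non-EGFP cells. With limma and Benjamini-Hochberg adjustment over all 18193 genes (adjusted p under 0.05), 4 of the 94 genes passed, or 4.26%, against 24.1% of all genes. The assembly factor gene Sdhaf1 was higher, 1 of 94 (1.06%) against 14.0% of all genes. The subunit genes Cox6b2 and Sdhb and the assembly factor gene Ndufaf8 were lower, 3 of 94 (3.19%) against 10.2%. At an unadjusted p under 0.05, 3 were higher and 9 lower, where 19.7% of all genes were higher and 21.0% lower.

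The differences were small in most cases. Of the 94 genes, 79 differed by less than 0.5 and 5 by 1 or more (Cox6b2, Cox6a2, Cox7a1, Sdhaf1 and Ndufaf6). For 73 the 95% interval of the difference lay within 1 unit on either side of 0, and the median half-width of the intervals was 0.49, so differences below about that size could not be resolved with 3 arrays per group. The median difference was -0.12 (quartiles -0.33 and 0.07; 30 positive, 64 negative), beside -0.17 for all genes (quartiles -0.56 and 0.54). Which of the medians is higher depends on dim genes. The median of the 94 stood 0.05 above that of all genes as deposited, but the gap was -0.14 with genes under the background level left out and -0.13 without the lowest 25% of genes. Without non-EGFP replicate 1 it was -0.03. The values of the 2 groups did not overlap for 34 of the 94 genes (36.2%), against 49.9% of all genes. Of these, 7 were higher (7.45%, against 21.8% of all genes) and 27 lower (28.7%, against 28.1%). In bulk samples, fewer cells of a type and less RNA per cell cannot be told apart.

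**Figure D1:**
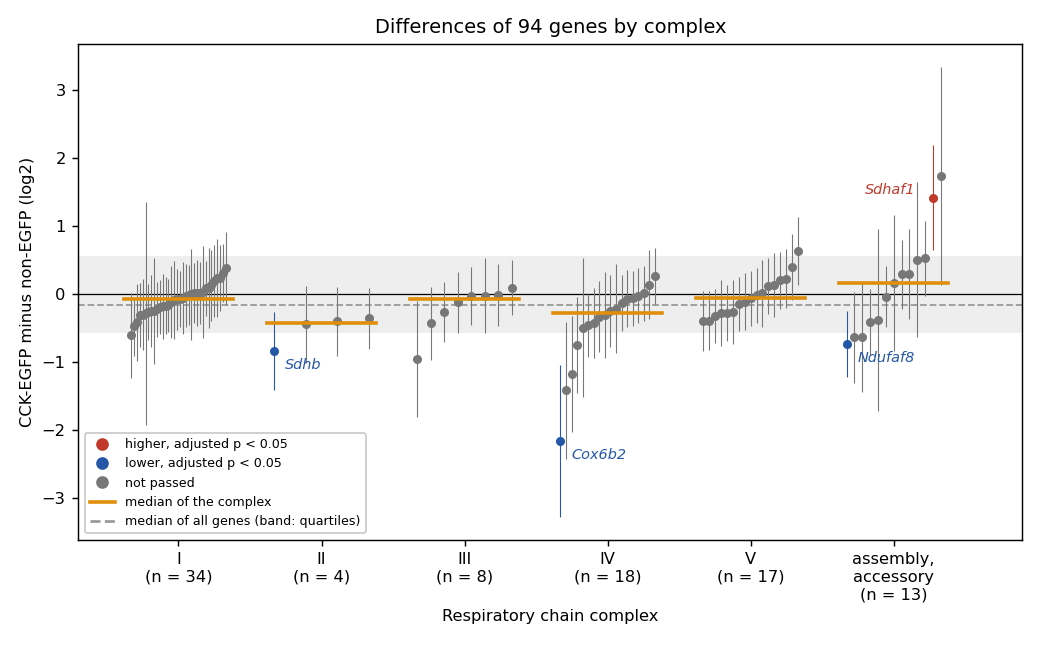
CCK-EGFP minus non-EGFP difference (log2) of each of the 94 genes, sorted within each complex, with 95% intervals; red and blue points passed limma at an adjusted p under 0.05, orange bars are medians of a complex, and the dashed line and grey band are the median and quartiles of all genes. Sdhaf1 is the 1 gene that passed above 0, and Cox6b2, Sdhb and Ndufaf8 are the 3 that passed below it.

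Promoters of the respiratory chain genes were searched for motifs of factors known to act on them, in RefSeq windows of 300 bases (250 before to 50 after the start, GRCm38.p6) that matched 78 of the 94 genes. The windows of the 4 genes that passed, and of Atp5g2 as the subunit c gene with the largest difference, are printed 5′ to 3′ on the gene's strand, with matches in capitals. The motifs were GCGCA and GCGC with any 1 base between them for NRF1, CCGGAAG for ETS factors such as GABPA and AAGATGGCG for YY1, each on either strand.
Sdhb, chr4:140961021-140961320, plus strand: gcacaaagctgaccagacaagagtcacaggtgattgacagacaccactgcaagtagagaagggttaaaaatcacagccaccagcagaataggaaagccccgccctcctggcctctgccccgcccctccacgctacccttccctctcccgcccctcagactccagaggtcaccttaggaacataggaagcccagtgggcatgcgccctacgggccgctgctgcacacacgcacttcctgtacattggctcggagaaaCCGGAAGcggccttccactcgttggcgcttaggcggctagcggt
Sdhaf1, chr7:30322326-30322625, minus strand: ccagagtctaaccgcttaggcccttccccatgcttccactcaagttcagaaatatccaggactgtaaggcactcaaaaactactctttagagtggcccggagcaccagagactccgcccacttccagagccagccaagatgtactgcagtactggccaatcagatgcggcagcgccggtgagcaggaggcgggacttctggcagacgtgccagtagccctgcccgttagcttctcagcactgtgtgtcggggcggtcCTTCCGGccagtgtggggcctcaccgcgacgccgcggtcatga
Ndufaf8, chr11:120098684-120098983, plus strand: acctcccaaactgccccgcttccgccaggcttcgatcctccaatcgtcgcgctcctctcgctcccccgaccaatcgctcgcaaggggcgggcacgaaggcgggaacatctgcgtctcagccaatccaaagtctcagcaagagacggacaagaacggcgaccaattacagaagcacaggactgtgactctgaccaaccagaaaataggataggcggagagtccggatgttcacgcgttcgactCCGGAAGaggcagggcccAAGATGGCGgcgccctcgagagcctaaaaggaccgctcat
Cox6b2, chr7:4753045-4753344, minus strand: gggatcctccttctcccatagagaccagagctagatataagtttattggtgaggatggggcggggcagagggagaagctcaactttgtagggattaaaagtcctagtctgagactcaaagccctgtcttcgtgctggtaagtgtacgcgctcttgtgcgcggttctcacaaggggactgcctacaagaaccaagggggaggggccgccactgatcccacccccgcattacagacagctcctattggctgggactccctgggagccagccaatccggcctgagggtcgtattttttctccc
Atp5g2, chr15:102670998-102671297, minus strand: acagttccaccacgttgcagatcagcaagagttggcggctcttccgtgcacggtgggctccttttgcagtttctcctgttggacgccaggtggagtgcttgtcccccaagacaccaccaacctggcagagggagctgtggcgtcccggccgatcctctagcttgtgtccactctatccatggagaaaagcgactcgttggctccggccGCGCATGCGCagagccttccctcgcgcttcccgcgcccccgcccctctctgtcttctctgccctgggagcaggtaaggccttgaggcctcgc

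The ETS motif stands once each in the windows of Sdhb, Sdhaf1 and Ndufaf8, in Sdhaf1 on the opposite strand, and Ndufaf8 also holds the YY1 motif. The part of any motif in the differences was not tested. Atp5g2 holds the NRF1 motif, and none of these letters are in the Cox6b2 window. Over all matched genes of the chain, 41 of 78 held at least 1 of the 3 motifs. The NRF1 motif was in 19 (24.4%), against 8.63% of the 14367 array genes with a window. The ETS motif was in 22 (28.2%, against 15%) and the YY1 motif in 7 (8.97%, against 2.54%).

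The TCAAGGTCA motif of Esrra and related receptors was found for 2 of the 78 genes, Atp5g3 and Sdhd (2.56%, against 0.404% of array genes with a window). The median difference was -0.15 with and -0.07 without the NRF1 motif, -0.02 with and -0.11 without the ETS motif, and -0.08 with and -0.07 without the YY1 motif. A match is a description of letters, and binding was not measured.

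The deposited scale matters for the direction. The arrays were centred on their medians over the 18193 chosen genes, which were 7.39, 7.54 and 7.47 on CCK-EGFP arrays, against 6.58, 6.84 and 6.92 on non-EGFP arrays. This median centring moved the median difference of all genes by -0.69, to -0.86, and turned the split of calls over all genes to 1675 higher and 9263 lower, where it was 2540 higher and 1851 lower as deposited. The 94 genes then split into 0 higher and 67 lower. Centring on the medians over all probe sets given earlier, an alternative added after seeing the data, moved the median of all genes by only -0.25, with 2101 higher and 3605 lower over all genes and 1 higher and 11 lower among the 94. Centring lowers each gene alike, so every positive difference under 0.69 given here, list medians included, is negative after the first kind, and every one under 0.25 after either kind. A second quantile normalization gave 2117 higher and 2588 lower over all genes, and 2 higher and 5 lower among the 94.

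Many of these genes are abundant. Among all genes with a mean above 10, 26.7% passed, while among the 94 genes 73 had such a mean and 2 of them passed (2.74%). A group mean above 13, near the top of the scale, was reached by 21 of the 94 genes, 17 in CCK-EGFP cells, against 20 in non-EGFP cells. They were 6 subunits of complex I, 2 of complex III, 5 of complex IV and 8 of complex V. None of these 21 passed, and their median difference was -0.07. Of all 272 genes with such a group mean, 34 passed as higher and 31 as lower, with a median difference of -0.16. Compression of differences at the top of the scale was not tested.

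**Figure D2:**
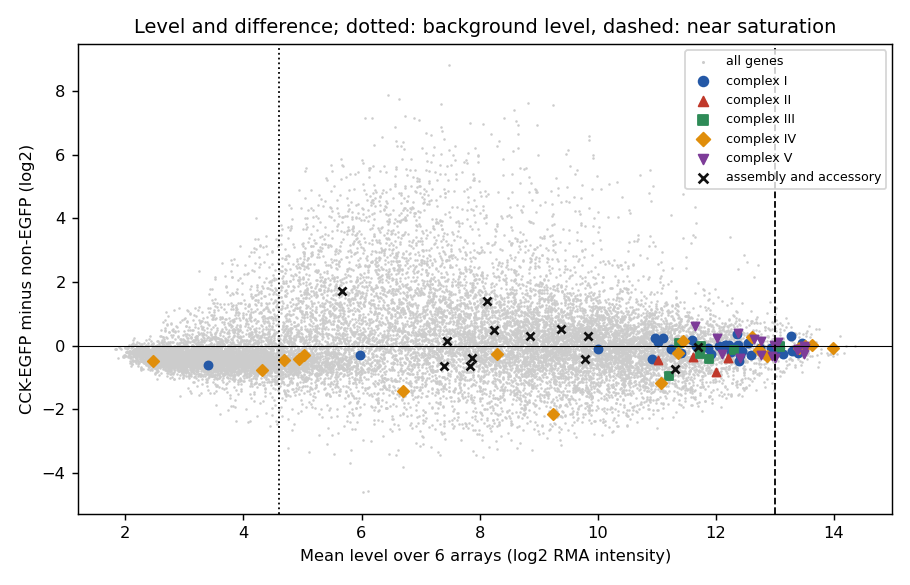
Mean log2 intensity over the 6 arrays (x) against the CCK-EGFP minus non-EGFP difference (y, log2) for all genes in grey and for the respiratory chain and ATP synthase genes by complex; the dotted line is the background level of 4.60 and the dashed line marks 13. Most of the 94 genes lie above 10 and within 0.5 of no difference.

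None of the 34 complex I genes passed limma's test. Their differences ran from -0.61 to 0.38 with a median of -0.07, and 1 had an unadjusted p under 0.05. The groups did not overlap for 1 higher and 8 lower genes, where the shares over all genes were 21.8% and 28.1%. The median over the complex was 12.05, 12.24 and 12.22 on CCK-EGFP arrays, against 12.00, 12.40 and 12.22 on non-EGFP arrays, so the groups overlapped. The 14 genes of the matrix arm, which takes electrons from NADH, had a median difference of -0.02, and the 19 of the membrane arm, which pumps protons, had -0.09. Among the 6 catalytic core subunits the median was -0.12.

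Ndufs1, the largest core subunit and an iron-sulfur protein of the matrix arm, read 10.33, 10.88 and 10.95 in CCK-EGFP cells, against 11.04, 11.06 and 11.31 in non-EGFP cells (difference -0.42, SE 0.23, limma adjusted p = 0.219). Ndufb9, an accessory subunit of the membrane arm, read 11.98, 12.24 and 12.23 in CCK-EGFP cells, against 12.63, 12.71 and 12.55 in non-EGFP cells (-0.48, SE 0.18, adjusted p = 0.0951). The groups did not overlap for either gene, yet neither passed, and both were singled out after their values were seen, as was Ndufc2 with the largest positive difference of the complex (0.38, adjusted p = 0.243). After median centring Ndufc2 differed by -0.31.

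Of the complex I genes with the highest means, the accessory subunit gene Ndufv3 averaged 13.51 ± 0.08 in CCK-EGFP cells, against 13.42 ± 0.08 in non-EGFP cells (SD, n = 3 each; 0.08, adjusted p = 0.727). After median centring it differed by -0.60. Ndufs7, a core subunit that holds the last cluster before coenzyme Q, averaged 13.27 ± 0.04 in CCK-EGFP cells, against 13.50 ± 0.11 in non-EGFP cells (-0.23, adjusted p = 0.337). The probe set of Ndufb4 lay below background in both groups, at 3.09 ± 0.16 in CCK-EGFP cells, against 3.70 ± 0.42 in non-EGFP cells, and gives no measure of that subunit. Probe sets shared between Ndufb4 and close copies carried several symbols and were not taken in.

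All 4 succinate dehydrogenase genes had lower means in CCK-EGFP cells, and 1 of them, Sdhb, passed. The median over complex II was 11.26, 11.51 and 11.77 on CCK-EGFP arrays, below every non-EGFP value, at 11.95, 12.16 and 12.13. Its median difference was -0.43, beside -0.17 for all genes, and the groups did not overlap for Sdhb, Sdhc and Sdhd. Of all genes, 28.1% did not overlap as lower in CCK-EGFP cells, and 10.2% passed as lower.

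Sdhb, the iron-sulfur subunit that passes electrons to coenzyme Q, read 11.22, 11.67 and 11.88 in CCK-EGFP cells, against 12.21, 12.50 and 12.57 in non-EGFP cells. It was 1.78-fold lower (difference -0.83, SE 0.24, limma adjusted p = 0.0481). The call was lost without any single array (adjusted p = 0.0501 to 0.139) and under a second quantile normalization (0.0605), and over all alternatives adjusted p ran from 0.0041 to 0.139. Sdha, the flavoprotein that oxidises succinate, read 11.92, 11.82 and 12.26 in CCK-EGFP cells, against 12.21, 12.62 and 12.38 in non-EGFP cells, which overlap (-0.40, adjusted p = 0.197). Its probe sets differed by -1.59 to -0.20. The membrane anchors Sdhc (-0.45, adjusted p = 0.196) and Sdhd (-0.36, adjusted p = 0.196) did not pass.

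None of the 8 complex III genes passed, and their median difference was -0.08. The complex median was 11.56, 11.83 and 11.83 on CCK-EGFP arrays, against 11.78, 12.16 and 12.08 on non-EGFP arrays. Uqcrc1, a core protein of the complex, read 10.10, 10.65 and 11.46 in CCK-EGFP cells, against 11.54, 11.73 and 11.81 in non-EGFP cells. The groups did not overlap. Within CCK-EGFP cells, replicate 3 had the highest Uqcrc1 value and the most enterocyte marker signal. Its T and NK lymphocyte, B and plasma cell, myeloid and Paneth markers also had the highest means of its group. So did its stem and crypt base, cell cycle, striated muscle and brown fat markers. The lowest means of the group were those of its tuft, smooth muscle, and stroma and endothelium markers. T and NK lymphocyte markers averaged 9.86, 10.87 and 11.94 on CCK-EGFP arrays, against 10.53, 11.05 and 11.88 on non-EGFP arrays. The part of any of these cell types in the Uqcrc1 values was not tested. Uqcrc1 differed by -0.96 (SE 0.35, limma adjusted p = 0.0937), and without CCK-EGFP replicate 3, an array singled out after seeing the data, by -1.32 (adjusted p = 0.0227, with a range of 0.0084 to 0.223 over all alternatives). Uqcrfs1, the Rieske iron-sulfur protein, differed by -0.43 (adjusted p = 0.184). Both genes were singled out after their values were seen.

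The complex III genes with the highest means were Uqcrb at 13.07 ± 0.08 in CCK-EGFP cells, against 13.10 ± 0.15 in non-EGFP cells (SD, n = 3 each) and the hinge protein gene Uqcrh at 13.08 ± 0.16 in CCK-EGFP cells, against 13.09 ± 0.16 in non-EGFP cells (-0.03 and -0.02). Of the partners whose symbols the rule does not take in, Cyc1, the cytochrome c1 subunit, differed by -0.37 (adjusted p = 0.346) and Cycs, cytochrome c itself, by -0.52 (adjusted p = 0.0734).

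Complex IV is made of common subunits and of tissue isoforms that can stand in for some of them. The 10 common subunits had a median difference of -0.07, and none passed, with 0 at an unadjusted p under 0.05. The 8 tissue isoforms all had lower means in CCK-EGFP cells, with a median of -0.62, and 5 had an unadjusted p under 0.05 (21.0% of all genes were lower at that threshold). After adjustment 1 of the 8, Cox6b2, passed, where 10.2% of all genes did so as lower. As a list the isoforms were dim, with medians of 4.78, 4.74 and 4.88 on CCK-EGFP arrays, against 5.18, 5.44 and 4.89 on non-EGFP arrays. Cox8b and Cox8c, near the background of 4.60, were among the 5 with an unadjusted p under 0.05. Over all genes the median difference was -0.17, but 0.05 with genes under the background level left out. The part of signal level in the isoform differences was not tested. The grouping into common subunits and isoforms was drawn up with earlier results of these data known. The complex median over both kinds was 10.44, 11.03 and 11.13 on CCK-EGFP arrays, against 11.06, 11.60 and 11.62 on non-EGFP arrays.

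Cox6b2, an isoform of the cytochrome c binding subunit known from testis, read 9.12, 7.43 and 7.92 in CCK-EGFP cells, against 10.79, 10.22 and 9.96 in non-EGFP cells. It was 4.49-fold lower (difference -2.17, SE 0.47, limma adjusted p = 0.0202), and it has 1 probe set. The call ended without non-EGFP replicate 1 or 2, or without CCK-EGFP replicate 2 or 3 (adjusted p = 0.0551 to 0.0658), within a range of 0.0057 to 0.0658 over all alternatives. Its common partner Cox6b1 averaged 13.49 ± 0.07 in CCK-EGFP cells, against 13.52 ± 0.07 in non-EGFP cells (SD, n = 3 each; -0.03, adjusted p = 0.910).

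The heart and skeletal muscle isoforms had lower means but did not pass. Cox7a1 read 9.92, 10.46 and 11.08 in CCK-EGFP cells, against 11.23, 12.02 and 11.73 in non-EGFP cells, with no overlap (-1.17, SE 0.36, adjusted p = 0.0562). With the replicate number as a block it passed (adjusted p = 0.0400, with a range of 0.0055 to 0.149 over all alternatives). Cox6a2 read 5.93, 5.25 and 6.80 in CCK-EGFP cells, against 7.81, 7.33 and 7.10 in non-EGFP cells, again with no overlap (-1.42, SE 0.42, adjusted p = 0.0528). Cox6a2 passed under several alternatives, among them both filters on dim genes (0.0452 and 0.0464) and the fit without CCK-EGFP replicate 3 (0.0188), with a range of 0.0094 to 0.137 over all of them. Cox8b averaged 3.94 ± 0.54 in CCK-EGFP cells, below background, and 4.69 ± 0.05 in non-EGFP cells (-0.75, adjusted p = 0.107). The common partners Cox7a2 (0.01), Cox6a1 (-0.06) and Cox8a (0.14) had adjusted p-values of at least 0.641, and after median centring Cox7a2 and Cox8a differed by -0.68 and -0.55.

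None of the 5 striated muscle markers passed, but 4 had lower means in CCK-EGFP cells, with a median difference of -0.46. The groups did not overlap for myoglobin, Mb, singled out after its values were seen (-0.67, adjusted p = 0.0639). The mean level of the markers was 4.02, 4.31 and 4.64 on CCK-EGFP arrays, against 4.20, 4.84 and 4.75 on non-EGFP arrays, and 2 or 3 of the 5 lay below background on each array. Smooth muscle markers averaged 4.90, 4.84 and 4.49 on CCK-EGFP arrays, against 5.88, 5.94 and 5.22 on non-EGFP arrays, and 1 of 4, the intermediate filament gene Des, passed as lower (-0.82, adjusted p = 0.0410, against 0.0596 in the fit with the replicate block, with a range of 0.0050 to 0.176 over all alternatives). The part of muscle RNA in the isoform values was not tested.

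The remaining isoforms were dim. The testis isoform Cox8c averaged 4.45 ± 0.16 in CCK-EGFP cells, against 4.91 ± 0.17 in non-EGFP cells (adjusted p = 0.121), and the lung isoform Cox4i2 averaged 4.72 ± 0.25 in CCK-EGFP cells, against 5.15 ± 0.18 in non-EGFP cells (adjusted p = 0.176; SD, n = 3 each). Cox7b2 lay below background in both groups, at 2.21 ± 0.12 in CCK-EGFP cells, against 2.71 ± 0.86 in non-EGFP cells. Ndufa4l2, an isoform of Ndufa4 known as a target of hypoxia signalling, differed by -0.31 (adjusted p = 0.393). The common partners Cox4i1 (-0.14, adjusted p = 0.560) and Ndufa4 (-0.22, adjusted p = 0.558), now assigned to complex IV despite its name, did not pass. Cox5b, with the highest mean of the complex, averaged 13.94 ± 0.08 in CCK-EGFP cells, against 14.02 ± 0.12 in non-EGFP cells, and its probe sets differed by -0.98 to 0.24.

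None of the 17 ATP synthase genes passed, and their median difference was -0.07. The complex median was 12.79, 12.76 and 12.87 on CCK-EGFP arrays, against 12.75, 13.08 and 13.01 on non-EGFP arrays. The 5 genes of the catalytic F1 part had a median difference of -0.12. The 4 genes of the peripheral stalk, which holds the F1 head still, had -0.33, and their groups did not overlap, all lower in CCK-EGFP cells (Atp5pb -0.40, Atp5o -0.39, Atp5j -0.26 and Atp5h -0.15, adjusted p = 0.152 to 0.511). Over the 17 genes of the complex, the groups did not overlap for 6 lower and 3 higher. The shares over all genes were 28.1% lower and 21.8% higher. The 8 genes of the membrane part had 0.16. These places were assigned with earlier results known, and the stalk genes were singled out after their values were seen.

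Subunit c, whose ring turns as protons pass, is encoded by 3 genes for the same mature protein. Atp5g2 read 11.88, 12.08 and 11.93 in CCK-EGFP cells, against 11.06, 11.59 and 11.37 in non-EGFP cells, with no overlap (0.63, SE 0.21, limma adjusted p = 0.0711). It passed with trend and robust settings (0.0303) and under a second quantile normalization (0.0497), and after median centring it differed by -0.06 (0.820, the top of its range over alternatives, whose lowest value is 0.0303). Atp5g1 read 12.45, 12.67 and 12.62 in CCK-EGFP cells, against 11.90, 12.27 and 12.38 in non-EGFP cells (0.39, adjusted p = 0.188), but its probe sets ran from -0.40 to 0.39, and after median centring it differed by -0.29. Atp5g3 averaged 13.48 ± 0.04 in CCK-EGFP cells, against 13.50 ± 0.09 in non-EGFP cells (SD, n = 3 each; -0.02, adjusted p = 0.929), near the top of the scale. Of the highest means in the complex, Atp5j2 differed by -0.07 (adjusted p = 0.784) and Atp5d, the delta subunit of the F1 part, by -0.28 (adjusted p = 0.256).

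**Figure D3:**
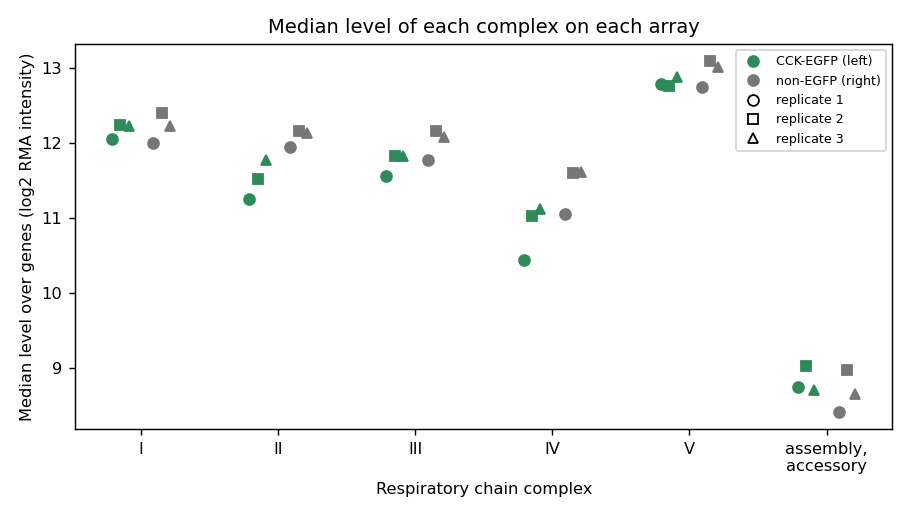
Median log2 intensity over the genes of each complex on each array, with CCK-EGFP arrays in green on the left and non-EGFP arrays in grey on the right (circle, square and triangle are replicates 1, 2 and 3). The groups separate for complex II, at 11.26 to 11.77 in CCK-EGFP cells, against 11.95 to 12.16 in non-EGFP cells, and overlap for the other complexes.

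Of the 13 assembly and accessory factors, 1 was higher and 1 lower, where 14.0% of all genes were higher and 10.2% lower. Their median difference was 0.16. Sdhaf1, which helps insert the iron-sulfur clusters of Sdhb, read 8.75, 9.03 and 8.72 in CCK-EGFP cells, against 6.84, 8.03 and 7.39 in non-EGFP cells. It was 2.67-fold higher (difference 1.42, SE 0.32, limma adjusted p = 0.0245), opposite in sign to Sdhb itself. The call ended without any 1 CCK-EGFP array or without non-EGFP replicate 3 (adjusted p = 0.0519 to 0.0930), and after median centring (0.0658, within a range of 0.0153 to 0.0930 over all alternatives). The other complex II factors did not pass. Ndufaf8, a complex I assembly factor, read 10.98, 11.00 and 10.85 in CCK-EGFP cells, against 11.95, 11.61 and 11.45 in non-EGFP cells. It was 1.66-fold lower (-0.73, SE 0.20, limma adjusted p = 0.0435), and its 2 probe sets differed by -0.94 and -0.73.

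The Ndufaf8 call ended with the replicate number as a block (adjusted p = 0.0624), under a second quantile normalization (0.0503) and without any 1 array other than non-EGFP replicate 3 (0.0863 to 0.121), within a range of 0.0072 to 0.121 over all alternatives. Ndufaf6, another complex I assembly factor, had the largest positive difference (1.73, SE 0.67, adjusted p = 0.104) and was singled out after its values were seen. It read 6.88, 6.72 and 6.02 in CCK-EGFP cells, against 3.92, 4.13 and 6.38 in non-EGFP cells, so non-EGFP replicate 3 lay among the CCK-EGFP values and the others below background. Cox7a2l, which joins complexes III and IV into supercomplexes, differed by -0.04 (adjusted p = 0.877).

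**Figure D4:**
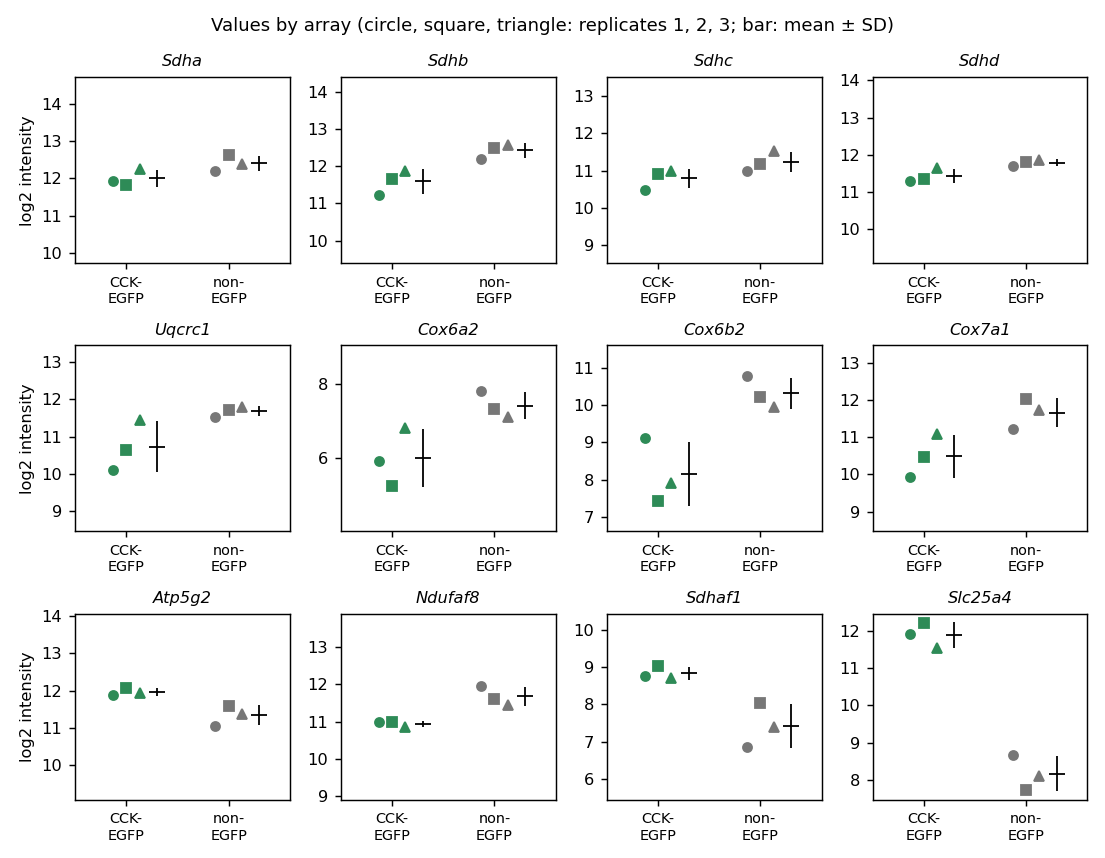
Log2 intensity of 12 genes on each array, with CCK-EGFP left of non-EGFP in each panel (circle, square and triangle are replicates 1, 2 and 3; bars are the mean ± SD); every panel spans 5 units. Sdhb, Cox6b2 and Ndufaf8 lie lower and Sdhaf1 and Slc25a4 higher in CCK-EGFP cells and passed limma's test, while the other panels did not pass.

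Genes that feed or build the chain were counted from lists drawn up with earlier results of these data known. Their counts stand against 14.0% of all genes called higher and 10.2% called lower. None of 12 measured tricarboxylic acid cycle genes passed, with a median difference of -0.48 beside -0.17 for all genes, and 5 were lower at an unadjusted p under 0.05, where 21.0% of all genes were. None of the 4 genes that bring in electrons from fat oxidation or glycerol phosphate passed (median -0.75). Of 10 pyruvate dehydrogenase genes, the inhibitory kinase Pdk3 was higher (2.31, adjusted p = 0.0276) and Pdk2 lower (-1.05, adjusted p = 0.0461). Both calls could be lost by leaving out 1 array (adjusted p up to 0.0980 and 0.141).

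Of 22 assembly genes for complexes III and IV, 1 was higher and 4 lower, with a median of -0.02. Sco2, which delivers copper to complex IV, read 9.67, 10.03 and 10.37 in CCK-EGFP cells, against 11.92, 11.66 and 11.63 in non-EGFP cells, and was 3.28-fold lower (-1.71, SE 0.24, limma adjusted p = 0.0049). Bcs1l, which places the Rieske protein in complex III, rose by 0.82 (adjusted p = 0.0325) and Cox19, a copper chaperone, fell by 0.81 (adjusted p = 0.0247). Both lost their calls under some alternatives (adjusted p up to 0.671 for Bcs1l and 0.0885 for Cox19). None of 3 complex V assembly genes passed (median -0.26).

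Of 12 genes of coenzyme Q synthesis, 3 were higher and 2 lower (median -0.26). Coq2, which joins the ring to its tail, rose by 1.67 (adjusted p = 0.0060), the kinase-like Coq8a rose by 1.43 (adjusted p = 0.0084) and Coq4 fell by 1.24 (adjusted p = 0.0085). Each of these 3 passed under all alternatives run. Among 76 mitochondrial ribosome genes, 3 were higher and 0 lower (median 0.26), and of 27 import and outer membrane genes 1, Timm29, was higher (median 0.05), without its call under the replicate block (adjusted p = 0.0581, with a range of 0.0177 to 0.854 over all alternatives).

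Of 15 regulators of mitochondrial biogenesis, 2 passed as lower and 0 as higher, and the median was 0.05. Esrra, an orphan nuclear receptor known to activate respiratory chain genes, read 8.0, 8.52 and 8.44 in CCK-EGFP cells, against 9.93, 9.92 and 9.76 in non-EGFP cells. It was 2.93-fold lower (-1.55, SE 0.21, limma adjusted p = 0.0044) and passed under all alternatives run (adjusted p = 0.0016 to 0.0186). Polg, the mitochondrial DNA polymerase, fell by 0.96 (adjusted p = 0.0131, and up to 0.0601 over the alternatives). Ppargc1a, the coactivator PGC-1 alpha and singled out after its values were seen, read 8.23, 8.99 and 9.53 in CCK-EGFP cells, against 9.73, 10.67 and 10.33 in non-EGFP cells (-1.33, adjusted p = 0.0555, against 0.0314 in the fit with the replicate block, with a range of 0.0057 to 0.141 over all alternatives).

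The adenine nucleotide carriers exchange the ATP made by complex V for ADP, and of the 3 carrier genes measured 1 was higher. Slc25a4, known as the heart and skeletal muscle carrier, read 11.91, 12.21 and 11.53 in CCK-EGFP cells, against 8.66, 7.72 and 8.11 in non-EGFP cells. It was 13.2-fold higher (3.72, SE 0.31, limma adjusted p = 0.000754) and passed under all alternatives run, although its probe sets ran from -0.18 to 3.89. The widely used carrier Slc25a5 (-0.29, adjusted p = 0.327) and the phosphate carrier Slc25a3 (-0.53, adjusted p = 0.0714) did not pass.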

How the data were processed

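The 6 arrays measured RNA of fluorescence-sorted intestinal cells, amplified from picogram amounts and labelled with biotin, per the labels' protocols. The deposited values are log2 intensities from RMA, per the submitters' processing notes, and no version or option is given in the sources used here. RMA corrects background, normalizes quantiles and summarises probes, so a broad shift between groups can be reduced, and it gives no detection call. Of 45101 probe sets, 34945 had 1 symbol in the platform annotation, which can be old, 932 had several, 9160 were unlisted and 64 were controls. Identifiers of 34741 were found in a RefSeq table (GRCm38.p6), which changed 0 symbols. Of the 94 genes, 53 had more than 1 probe set, with all of one sign in 37 and of both signs in 16. The chosen probe set of 22 genes is of a kind (s_at or x_at) that can match other transcripts. Levels were not compared between probe sets.

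The test was two-sided with no block, by lmFit and eBayes of limma 3.58.1 (R 4.3.3), tested on simulated data, with Benjamini-Hochberg adjustment over 18193 genes. Other steps used matplotlib 3.10.9, scipy 1.17.1, pandas 2.3.3 and numpy 2.4.6 under Python 3.11.15. Members, lists, tests and the naming rule were chosen with earlier results of these data known. Named were genes past the threshold and the 2 with the highest means in each complex, the isoforms and their partners, subunit c and complex II genes, genes below background, and up to 3 called genes of each pathway list. Others are said to be singled out.

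Both groups are numbered 1 to 3. Deviations from group means, correlated across genes, gave 0.270, 0.159 and 0.219 for the same number and -0.245 to -0.0109 otherwise. Deviations within a group cancel out, so both kinds of value depend on each other and do not settle whether the samples are paired. The labels do not say what a number marks. The fit itself had no block, and the value with the replicate block is given where it changes a call. Alternatives were the replicate block, filters at the background level and at the lowest 25% of genes, trend and robust settings, array weights, centring on the median over genes or, added after seeing the data, over probe sets, a second quantile normalization, the mean of a gene's probe sets, and leaving out each array.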

Additional observations from a re-analysis of the deposited data

How the results depend on the processing

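The small number of arrays and the pull of single arrays limited the calls. The replicate block left the counts at 1 higher and 3 lower, and the calls it changed among respiratory chain genes and pathway genes named above are given there. The count of higher genes, 1 as reported, was 2 with trend and robust settings, with array weights and under a second quantile normalization, and 0 after median centring or among the subunits alone. Leaving out 1 array gave 0 to 1 higher and 0 to 3 lower. The count of lower genes, 3 as reported, was 5 with a filter at the background level or at the lowest 25% of genes, with array weights, under a second quantile normalization and with the mean of all probe sets. It was 7 with trend and robust settings, 67 after median centring over genes and 11 over probe sets. The median difference was -0.80 and -0.37 after these centrings, which lower every difference alike, and -0.18 to -0.06 with 1 array left out. The cause of the other changes was not tested.

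Sign changes are listed here for the 65 genes named only, and not for the other respiratory chain genes. Several small differences of the named genes changed sign. After median centring over genes they were Atp5g1 (-0.29), Atp5g2 (-0.060), Atp5l (-0.46), Cox7a2 (-0.68), Cox8a (-0.55), Ndufv3 (-0.60), Ndufc2 (-0.31) and Ndufaf3 (-0.17), and with medians over probe sets Cox7a2 (-0.24), Cox8a (-0.12), Ndufv3 (-0.17) and Atp5l (-0.030). Under a second quantile normalization they were Atp5g3 (0.0049), Cox5b (0.023), Cox7a2l (0.037), Uqcrb (0.043) and Uqcrh (0.047). Array weights turned Cox7a2 (-0.016), and the mean of all probe sets turned Atp5g1 (-0.00078), Cox7a2l (0.0092) and Cox8a (-0.040). With 1 array left out, differences that changed sign were Atp5g3 (-0.067 to 0.028), Atp5j2 (-0.12 to 0.0013), Cox6b1 (-0.063 to 0.0093), Cox7a2 (-0.046 to 0.050), Cox7a2l (-0.14 to 0.043), Cox7b2 (-0.79 to 0.0022), Cox8a (-0.025 to 0.23), Uqcrb (-0.088 to 0.051) and Uqcrh (-0.095 to 0.068). Over the 65 genes named, direction and side of the threshold held in 781 of the comparisons with an alternative, 78 lost a call, 77 gained one and 34 changed sign.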
